A study of Homo sapiens with 6 samples.

Results

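The genes described are 10 members of the Krüppel-like factor (KLF) family, KLF2, KLF3, KLF4, KLF5, KLF6, KLF9, KLF10, KLF11, KLF13 and KLF16, out of 20033 protein-coding genes of the annotation. The list was given by name, and a ChIP-seq peak was assigned to a member when it overlapped the gene body or the 10 kb on either side of it. In ChIP-seq, DNA bound to histones is enriched with an antibody and sequenced, and a peak is a stretch with more reads than the background. All 10 members had a peak of lysine acetylation (Kac) in their window in untreated (control) cells, against 84.5% of coding genes, and all 10 in cells given sodium benzoate (SB), against 83.1%. A peak of lysine benzoylation (Kbz), a mark made from benzoyl-CoA in SB-treated cells, lay in the window of 9 members, against 75.2% of coding genes. When peaks with a deposited −log10 q below 2 were dropped (q is a false discovery rate, FDR), the members with Kac were 9 in each condition, without KLF2. None of the 8 members with a Kbz peak at a promoter had it over the canonical start, against 70.8% of coding genes with such a peak, although at KLF4, KLF5 and KLF11 the Kbz peak held another annotated start.

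The cells carry the label HepG2, a line grown from a human liver tumour, and were either untreated (control) or kept in 10 mM SB for 24 h. The series holds 6 libraries in 6 groups, input, Kac and Kbz from each condition, with 1 library per group. Peak lists of 3 libraries were used, control Kac (70326 peaks), SB Kac (63282 peaks) and SB Kbz (24308 peaks), and according to the labels no peaks were found in the control Kbz library. Both antibodies are pan antibodies, which do not tell the histone or the lysine that carried the mark. The labels name no genotype or other agent that differs between the groups. Since each group is 1 library, no difference could be set against replicate error, no test was made, and the Wilson 95% intervals given cover counting error only. The depth of each library is unknown from a peak list, so fold enrichment is given as a percentile within its own list, where 100 is the strongest peak. A check of the labelled cell type found that ALB, APOB and FOXA2, genes that liver cells use, had no peak in any list within 10 kb of the gene. Of 10 hepatocyte and HepG2 markers, promoter peaks were found at 4 for control Kac, at 5 for SB Kac and at 2 for SB Kbz. Of 5 blood markers 2 had a promoter peak in each list, as did 2 of 3 neuronal markers and 2 of 2 fibroblast markers, while of 3 endothelial markers 2, 3 and 1 had a peak of control Kac, SB Kac and SB Kbz. The part of this in the values below was not tested.

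KLF proteins are transcription factors that bind GC-rich DNA, the GC box and the related CACCC box, through zinc fingers at their C-terminal end, and they share this binding domain with the SP factors. Their N-terminal parts differ and recruit different enzymes. KLF2, KLF4, KLF5 and KLF6 can bring acetyltransferases to a gene, KLF3 recruits the corepressor CtBP, and KLF9, KLF10, KLF11, KLF13 and KLF16 carry a motif that binds the corepressor SIN3A with its histone deacetylases. Many KLF genes are themselves quickly induced by hormones, growth factors, shear stress or injury.

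Around all 10 members together, control Kac peaks covered 64.7 kb of 447.7 kb (14.4%), SB Kac peaks 81.3 kb (18.2%) and SB Kbz peaks 22.2 kb (4.96%). These bases belonged to 36 control Kac peaks, 33 SB Kac peaks and 16 SB Kbz peaks, with median lengths of 1263 bp, 1389 bp and 1070 bp. The median protein-coding gene had 2, 2 and 1 peaks in the same window, with 7.02%, 6.88% and 2.37% of it covered. The like measure, the median covered percentage over the members, was 16%, 19.4% and 2.41%, so for Kbz it lay near that of all coding genes. Taken gene by gene, control Kac lay above the coding-gene median at 7 members, SB Kac at 8 and SB Kbz at 5, and KLF16, KLF9 and KLF6 held the largest covered percentages in control Kac and SB Kbz. Counting only promoters, 3 kb on either side of any annotated start of the gene, there were 9 members with control Kac, 9 with SB Kac and 8 with SB Kbz, against 76.5%, 75.7% and 64.6% of all coding genes. With 10 members these counts lie near the shares over all genes.

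**Figure D1:**
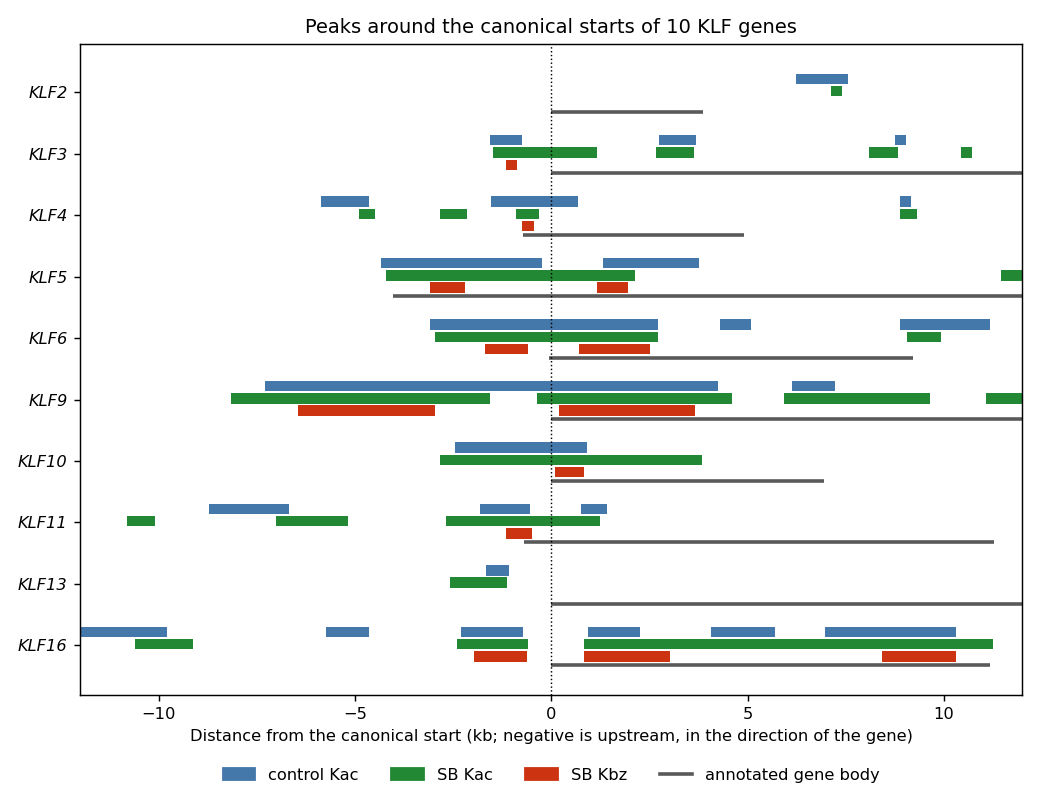
Peaks of the 3 lists around the canonical start of each of the 10 members, with distance along the gene's own direction on the x axis in kb and 1 track per list. KLF2 has no peak near its start, KLF9 and KLF16 carry the widest domains, and the Kbz bars lie beside the starts. The Kbz peaks in the introns of KLF13 lie outside the plotted range.

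As over the whole lists, Kbz peaks of the members lay at promoters more often than Kac peaks did. In the whole lists 55% of Kbz peaks, 32% of control Kac peaks and 34.4% of SB Kac peaks lay at a promoter of a coding gene. Of the 16 Kbz peaks, 12 lay at a KLF promoter, 2 in introns of KLF13, 1 in an exon of KLF16 and 1 at the promoter of REXO1, the neighbour of KLF16 and the only other coding gene that starts inside any member's window. Of the 36 control Kac peaks, 15 lay at a KLF promoter, 4 in introns, 3 in exons, 9 in the flank downstream of the gene, 4 in the flank upstream and 1 at REXO1. Of the 33 SB Kac peaks the numbers were 13, 8, 2, 5, 4 and 1. Promoters were assigned ahead of flanks, and by position the Kbz peak at REXO1 lay downstream of KLF16 and a Kbz peak of KLF9, from −6455 to −2970 bp, lay mostly beyond its 3 kb promoter window.

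KLF2, KLF4, KLF5 and KLF6, the members that can recruit acetyltransferases, had fewer bases under Kac peaks in SB than in control in the lists as deposited. This grouping by cofactor was made after the values were seen, and at a −log10 q of at least 2 KLF5 turned to a ratio of SB to control of 1.07 and KLF2 had no bases in either list. KLF2 keeps endothelium and T cells quiescent. Its gene (chr19:16324826-16328685, plus strand) had 1 control Kac peak of 1335 bp, which began 6232 bp downstream of the start, and 1 SB Kac peak of 280 bp inside the same stretch. It had no promoter peak in any list and no Kbz peak, and its covered bases were 1.33 kb in control Kac and 0.28 kb in SB Kac. KLF2 was thus the member with the fewest bases under either mark. As a percentage of the window, control Kac was lower at KLF3 (3.53%) and KLF13 (2.76%) than at KLF2 (5.6%), while SB Kac was lowest at KLF2 (1.17%).

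KLF4, a factor of epithelial barriers and of reprogramming to pluripotency, lies at chr9:107484852-107490482 on the minus strand. In control a Kac peak of 2230 bp (percentile 88.2) covered its start, from position −1539 to 690 (in bp from the start, negative upstream). In SB the Kac peak there was 591 bp long, ended 315 bp upstream of the start and ranked higher in its own list (90.8). The Kbz peak of KLF4 was 302 bp long and lay inside that shorter Kac peak, from −735 to −434 bp, where another of its 6 annotated starts falls. Kac covered 3.75 kb in control and 2.14 kb in SB.

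KLF5, which keeps epithelial cells dividing in the gut and elsewhere, lies at chr13:73054976-73077541 on the plus strand. It had a pair of control Kac peaks at its promoter, 4094 bp and 2459 bp long, which left 1557 bp around the start uncovered, and in SB 1 Kac peak of 6352 bp bridged them. The total changed little, 7.42 kb in control and 6.99 kb in SB. Its Kbz peaks, of 892 bp upstream of the start and of 774 bp downstream of it, were the weakest promoter Kbz peaks of the members, at percentiles 2.85 and 5.92. A control Kac peak of 866 bp in the gene (percentile 0.408) had no SB Kac partner, and an SB Kac peak of 636 bp in an intron (7.88) had no control partner.

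KLF6, a growth-restraining factor induced in liver injury, lies at chr10:3775996-3785281 on the minus strand. Its start lay inside a Kac peak of nearly the same extent in both conditions, 5798 bp in control (percentile 92.4) and 5672 bp in SB (95.9). Kbz did not fill this domain. It formed a peak of 1793 bp downstream of the start (87.5) and another of 1074 bp upstream (50.7), 1322 bp apart, with the start in the gap. The total under Kac peaks was 9.65 kb in control and 6.54 kb in SB, and the difference lay away from the start, where 2 control Kac peaks had no SB Kac partner and another was shorter in SB.

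KLF3, a repressor that works through CtBP and restrains fat and blood cell genes, lies at chr4:38664197-38701517 on the plus strand. Bases under Kac peaks went from 2.02 kb in control to 4.64 kb in SB, a ratio of 2.29. The upstream Kac peak was 821 bp in control (87.2), ending 736 bp before the start, and 2641 bp in SB (83.5), running over the start. The Kbz peak of KLF3 was 280 bp, from −1159 to −880 bp (52.2).

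The SIN3A-binding members KLF9, KLF10, KLF11, KLF13 and KLF16 each had more bases under Kac peaks in SB than in control in the lists as deposited, a grouping also made after the values were seen. At a −log10 q of at least 5 this was left at KLF16 alone, with KLF9 at a ratio of 0.999, KLF10 and KLF13 at 0 and KLF11 with no bases in either list. The only SB Kac peak of KLF10 fell just short of that threshold (4.95), and its control Kac peak passed it (5.43). KLF9, induced by glucocorticoid and thyroid hormone, lies at chr9:70384604-70414657 on the minus strand. Its control Kac peak of 11543 bp, longer than 99.5% of its list, ran from −7290 to 4252 bp around the start. In SB this stretch held 2 Kac peaks of 6576 bp (91.1) and 4959 bp (87.7), and introns held 2 Kac peaks with no control partner, 1204 bp and 1389 bp long. The totals were 13.2 kb in control and 18.1 kb in SB. Its 2 Kbz peaks were nearly alike in length, 3486 bp upstream (76.7) and 3475 bp downstream (50.8), and the gap of 3161 bp between them held the start.

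KLF10 and KLF11 are induced by TGF-β, and KLF11 also regulates the insulin gene. KLF10, at chr8:102648784-102655725 on the minus strand, had a Kac peak over its start in both conditions, 3367 bp in control (81.2) and 6669 bp in SB (72.1). Its Kbz peak of 737 bp (37.8) began 104 bp downstream of the start, the closest approach of Kbz to a canonical start among the members. KLF11, at chr2:10042849-10054836 on the plus strand, had 5.95 kb under control Kac peaks and 8.92 kb under SB Kac peaks. Its control peaks of 1284 bp and 678 bp on either side of the start were joined by an SB Kac peak of 3924 bp (70.2). Its Kbz peak of 664 bp (41.1) ended 485 bp upstream of the canonical start and held another annotated start.

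**Figure D2:**
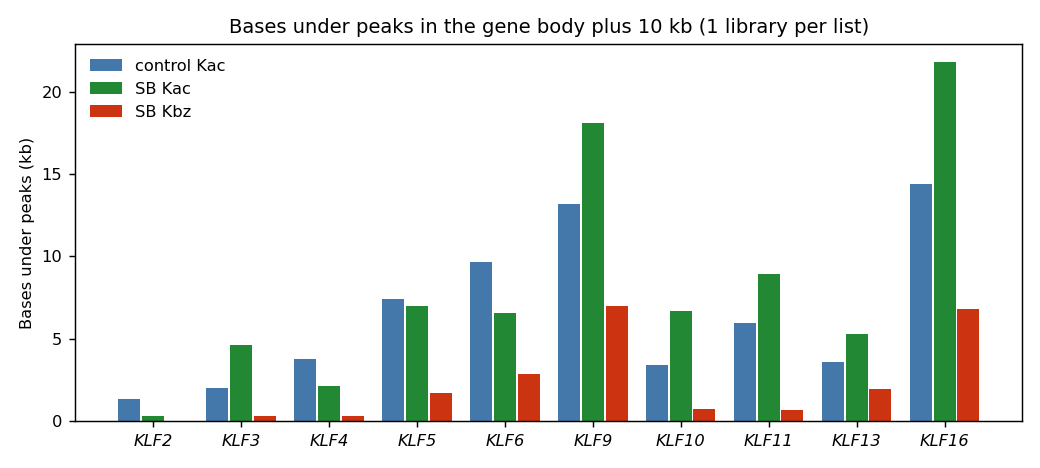
Bases under peaks, in kb, in the gene body plus 10 kb of each member, with 1 bar per list and 1 library per bar, so no error bars. KLF9 and KLF16 stand highest in each list, and the SB Kac bar is the taller Kac bar at 6 of the 10 members.

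KLF13, a factor of T cell chemokine expression, has the longest gene of the set (chr15:31326835-31435665, plus strand), and its marks lay away from the start. The nearest Kac peak ended 1075 bp upstream in control (percentile 41.1) and 1129 bp upstream in SB (45.6). Kac covered 3.55 kb in control and 5.25 kb in SB, with only 25.7% of the bases under either list shared by both. KLF13 had no Kbz peak at a promoter, but it had 2 in introns, 34679 bp and 70119 bp downstream of the start. The Kbz peak at chr15:31361514-31362352 (839 bp, percentile 34.1) was the only Kbz peak of the members with no control Kac peak, and an SB Kac peak of 1966 bp lay over it. The reverse case was the control Kac peak at chr15:31443791-31444406, downstream of the gene (616 bp), which at percentile 98.6 was the strongest control Kac peak of any member and overlapped neither an SB Kac nor an SB Kbz peak. The middle 200 bases of both peaks are given on the plus strand of hg38, since each lacks a Kac peak in the other condition, with capitals for CACCC or GGGTG (the CACCC box on either strand) and for GGGCGG or CCGCCC (the GC box on either strand).
KLF13 intron, SB Kbz peak, chr15:31361834-31362033: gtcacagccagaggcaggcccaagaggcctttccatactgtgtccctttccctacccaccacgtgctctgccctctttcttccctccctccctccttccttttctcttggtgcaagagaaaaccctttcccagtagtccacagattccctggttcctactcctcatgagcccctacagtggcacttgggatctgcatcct
KLF13 downstream flank, control Kac peak, chr15:31443999-31444198: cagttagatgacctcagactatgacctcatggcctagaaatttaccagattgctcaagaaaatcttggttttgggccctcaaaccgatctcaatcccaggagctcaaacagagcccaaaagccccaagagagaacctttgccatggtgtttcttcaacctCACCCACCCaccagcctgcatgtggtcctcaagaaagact
The Kbz stretch is 55.5% GC with 0 matches, and the control Kac stretch is 48.5% GC with 2 overlapping CACCC matches and 0 GC boxes.

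KLF16, a repressor that binds GC-rich promoters, had the most bases under Kac peaks in the gene body plus 10 kb. Only KLF9 had more under Kbz peaks there. Without the flanks, KLF9 had more SB Kac than KLF16 (10.9 kb against 10.4 kb). KLF5 then had more control Kac than KLF16 (7.11 kb against 6.29 kb). KLF16 lies at chr19:1852399-1863579 on the minus strand. Control Kac covered 14.4 kb in 8 peaks and SB Kac 21.8 kb in 4. An SB Kac peak of 10439 bp spanned 3 control peaks, and another of 9460 bp, at the promoter of REXO1, spanned 2. Kbz covered 6.81 kb in 4 peaks. Its Kbz peak at chr19:1864210-1865561, upstream of the start, had the highest fold of all member Kbz peaks (7.71, percentile 97.5), and the SB Kac peak over it ranked at 96.5 and the control Kac peak at 90.9. No list had a peak over the start of KLF16: the nearest control Kac peaks left a gap of 1652 bp, those of SB Kac left 1425 bp and those of SB Kbz left 1454 bp. The middle 200 bases of the leading Kbz peak, plus strand of hg38, hold 4 GC boxes (capitals) and 0 CACCC boxes, at 76% GC.
KLF16 upstream, SB Kbz peak, chr19:1864786-1864985: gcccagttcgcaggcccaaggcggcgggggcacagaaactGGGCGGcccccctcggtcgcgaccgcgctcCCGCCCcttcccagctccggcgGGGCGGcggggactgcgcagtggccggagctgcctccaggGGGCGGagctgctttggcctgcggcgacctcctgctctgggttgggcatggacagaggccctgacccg

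The ratio of bases under SB Kac peaks to those under control Kac peaks was 1.26 over all members, against 0.885 for the whole lists. It was above 1 at 6 of 10 members, and 47.2% of the 17208 coding genes with Kac peaks in the window had more bases in SB. The median ratio over 16382 genes with peaks in both lists was 0.985, with quartiles of 0.77 and 1.23. KLF3 (2.29), KLF10 (1.98), KLF16 (1.51), KLF11 (1.5), KLF13 (1.48) and KLF9 (1.37) lay above the upper quartile. KLF2 (0.21), KLF4 (0.571) and KLF6 (0.677) lay below the lower quartile, and KLF5 (0.942) between them. The split by cofactor has no test and did not hold at stricter thresholds. With peaks of −log10 q 5 or more the members with more bases in SB were KLF3, KLF5 and KLF16.

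Kac in SB and control shared fewer bases than peaks. Of the 36 control Kac peaks, 29 overlapped an SB Kac peak (80.6%, 65 to 90.2), against 64.7% over the whole list. Of the 33 SB Kac peaks, 26 overlapped a control Kac peak (78.8%, 62.2 to 89.3), against 72.5%. Of 64.7 kb under control Kac and 81.3 kb under SB Kac, 46.9 kb lay under both lists. The rest was 17.7 kb under control Kac alone and 34.4 kb under SB Kac alone, so that 47.4% of the bases under either were shared. No such share over the whole lists is given beside it. The shared percentage was highest at KLF6 (67.6) and KLF9 (59.7) and lowest at KLF11 (18.2) and KLF2 (21). The 7 control Kac peaks with no SB Kac partner had a median length of 776 bp and a median fold percentile of 35.1, against 1564 bp and 70.5 for the other 29, and the KLF13 peak was the exception. Over the whole list these values were 723 bp and 28.3 without a partner, and 1724 bp and 64.5 with it. The 7 SB Kac peaks with no control partner were weak as well, with a median length of 783 bp and percentiles between 7.88 and 54.1.

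Kbz lay inside Kac. All 16 Kbz peaks overlapped an SB Kac peak (100%, 80.6 to 100), against 93.7% of the whole Kbz list, and 99.9% of their bases lay under SB Kac. In the other direction Kbz touched 13 of the 33 SB Kac peaks (39.4%, 24.7 to 56.3), against 33.8%. These 13 had a median length of 4959 bp and a median percentile of 80.2, and the other 20 had 758 bp and 35.4. In the whole SB Kac list the medians were 2402 bp and 82.7 with Kbz, and 891 bp and 34 without, and a longer peak has more room to overlap another. The split was not clean: the KLF4 peak with Kbz was 591 bp long, the KLF13 peaks with Kbz stood at percentiles 42.5 and 51.9, and a KLF9 peak of 3721 bp had no Kbz. Among control Kac peaks, the 14 with Kbz on them had medians of 2437 bp and percentile 81.7, and the other 22 had 831 bp and 45.5. At promoters 10 of 13 member SB Kac peaks overlapped Kbz, against 58.1% of all promoter SB Kac peaks, and elsewhere 3 of 20, against 21%. Kbz took up 43.9% of the SB Kac bases at KLF6, 38.4% at KLF9, 35.7% at KLF13 and 31.3% at KLF16, but 6.04% at KLF3, 7.44% at KLF11 and 0% at KLF2.

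The order of the members was not the same in the 3 lists. By the strongest promoter peak, KLF16, KLF6 and KLF9 led in Kbz at percentiles 97.5, 87.5 and 76.7, and their SB Kac percentiles were 96.5, 95.9 and 91.1. The KLF9 Kbz peak at 76.7 ran from −6455 to −2970 bp, so it lay mostly beyond the promoter window. The KLF9 Kbz peak nearer the start stood at 50.8. KLF4 stood at 88.2 in control Kac, at 90.8 after SB and at 40.2 in Kbz. In SB Kac and in Kbz, KLF3 stood at 83.5 and 52.2, KLF10 at 72.1 and 37.8, KLF11 at 70.2 and 41.1, and KLF5 at 69.5 and 5.92. The Kbz percentile was the lower at 7 of 8 members, as at 91.3% of the 12892 genes with both promoter peaks, whose medians were 88.6 in SB Kac and 69.3 in Kbz. A percentile depends on the make-up of its list, so these pairs are not changes in level. Neighbours in these orders cannot be told apart without replicates. With a −log10 q of at least 5, Kbz promoter peaks were left at KLF6, KLF9 and KLF16. At KLF9 only the upstream peak was left (8.75), and the peak nearer the start was not (4.62).

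**Figure D3:**
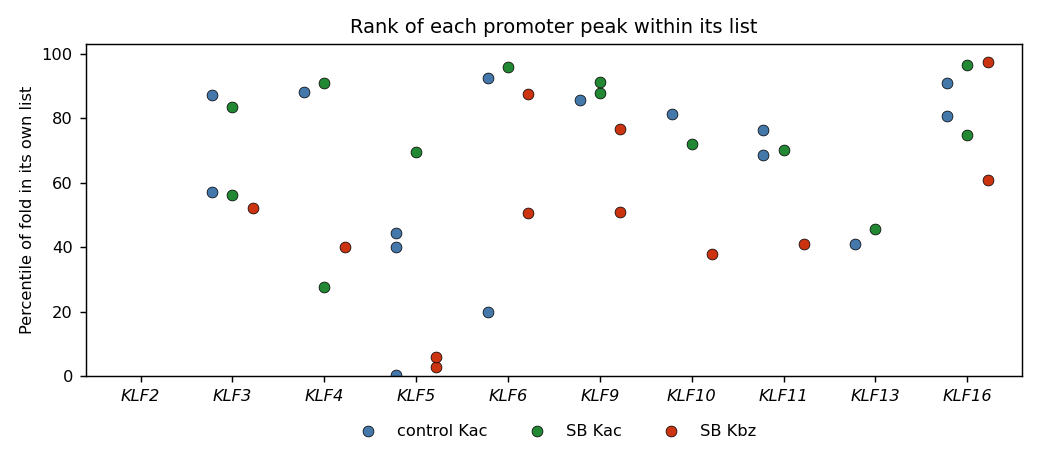
Fold percentile within its own list of every promoter peak of each member, with 1 point per peak on an axis from 0 to 100. The highest Kbz points of KLF6, KLF9 and KLF16 lie above 75, and KLF5 has Kbz points at 2.85 and 5.92.

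At the canonical start the count of members with Kbz lay below the share over all genes. None of the 8 members with a Kbz promoter peak had the canonical start under it (Wilson 0 to 32.4%), whereas 70.8% of the 12944 coding genes with a Kbz promoter peak did. This comparison was chosen after the values were seen, so the interval is not a test of it. Of the 9 members with a Kac promoter peak, the start was covered at 4 in control (KLF4, KLF6, KLF9 and KLF10), against 77.2% of genes, and at 6 in SB (KLF3, KLF5, KLF6, KLF9, KLF10 and KLF11), against 79.8%. Some of the Kbz difference lay in the choice of start. When any annotated start was accepted, Kbz peaks held a start at 3 members, KLF4, KLF5 and KLF11, against 81.8% of genes. Control Kac held an annotated start at 6 of 9 members, against 86.9% of genes, and SB Kac at 7 of 9, against 88.3%.

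Kbz peaks flanked the canonical start on both sides at KLF5, KLF6, KLF9 and KLF16, lay upstream at KLF3, KLF4 and KLF11, and lay downstream at KLF10. Among all genes with a Kbz peak within 3 kb of the start but none over it, 13.6% had peaks on both sides, against 4 of these 8 members. This split builds on the uncovered starts, a comparison chosen after the values were seen. The upstream Kbz peak of KLF9 ended at −2970 bp, so it barely reached the 3 kb window. Both flanking Kbz peaks of KLF5 were weak, at percentiles 2.85 and 5.92. Only KLF16 stayed flanked once Kbz peaks whose −log10 q fell under 5 were dropped. The weaker flanking peak stood at 4.86 for KLF6, 4.62 for KLF9 and 2.71 for KLF5. In control Kac the flanked members were KLF3, KLF5, KLF11 and KLF16 of 5 with no peak over the start, with 31% among genes, and in SB Kac KLF16 of 3, with 28.1%. The nearest Kbz edge stood 104 to 1174 bp from the start, with a median of 545 bp, close to the median of 575 bp over 3774 genes with an uncovered start.

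**Figure D4:**
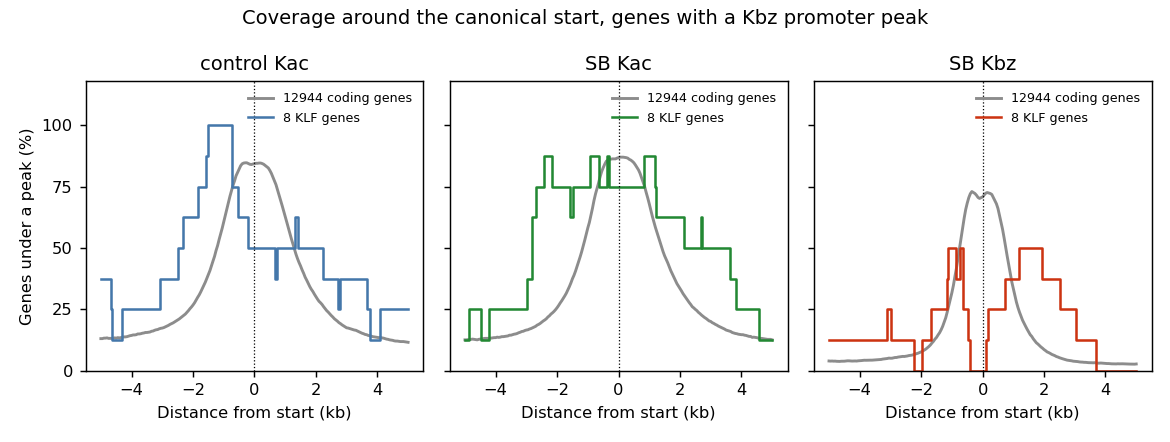
Share of genes, in percent, with a peak over each position from upstream to downstream of the canonical start, in steps of 50 bp, for the 8 members and the 12944 coding genes that have a Kbz promoter peak, with 1 panel per list. In the Kbz panel the members' curve falls to 0 at the start, where the curve of all these genes stands at 70.8%.

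The starts of the members were mostly GC-rich. Within 250 bp of the canonical start the GC content was 84% at KLF16, 78.4% at KLF11, 78.2% at KLF2, 77.8% at KLF3 and KLF13, 73.1% at KLF4, 70.1% at KLF6, 69.9% at KLF5 and KLF10, and 36.5% at KLF9. KLF2, KLF3, KLF11, KLF13 and KLF16 fell in the highest decile of all coding genes and KLF9 in the lowest. Over all genes with a Kbz promoter peak the covered share of starts was 28.4% (23.6 to 33.8) in the lowest decile, 81.3% in decile 5 and 48.8% (46.2 to 51.4) in the highest. The control Kac shares were 42.3% in the lowest decile, 86.7% in decile 6 and 62.1% in the highest. Genes at both ends of the GC range were thus covered less often in these lists, and 4 of the 8 members with a Kbz promoter peak (KLF3, KLF9, KLF11 and KLF16) lie at these ends. KLF5, KLF6 and KLF10 lie in decile 7, where 77.3% (75.2 to 79.2) of starts were under Kbz, and KLF4 in decile 8, where 72.4% (70.1 to 74.6) were. The part of base composition in the uncovered starts was not tested.

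**Figure D5:**
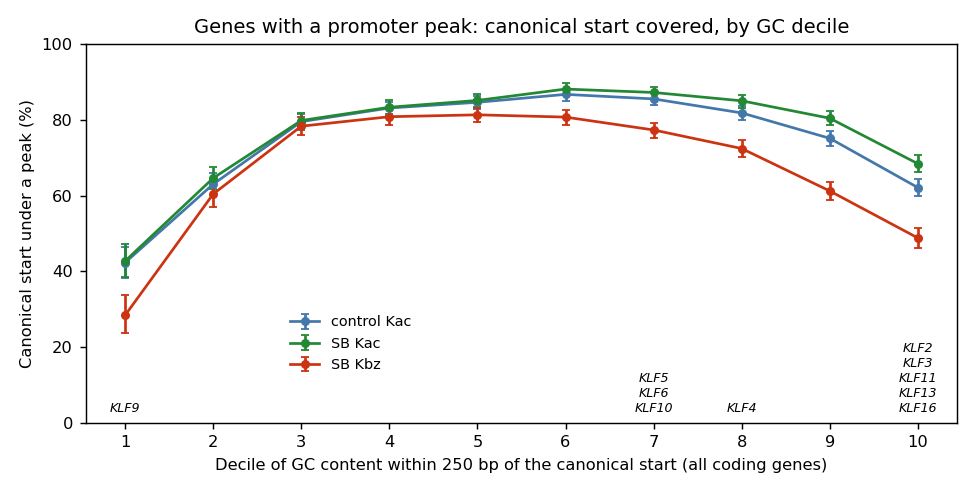
Share of genes with a promoter peak whose canonical start lies under a peak, in percent with Wilson 95% intervals, by decile of GC content within 250 bp of the start. The curves are lowest at both ends, and the member names mark their deciles, with 5 members in decile 10 and KLF9 in decile 1.

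The 250 bases upstream of the start are shown for KLF2, the member with no promoter peak, for KLF16 and KLF13, whose GC-rich starts were uncovered in all lists, and for KLF9, whose AT-rich start lay in the widest Kac domain. They come from RefSeq (GRCh38.p14), read 5′ to 3′ on the strand of the gene, with capitals for the GC box (GGGCGG or CCGCCC) and the CACCC box (CACCC or GGGTG).
KLF2, chr19:16324576-16324825, plus strand: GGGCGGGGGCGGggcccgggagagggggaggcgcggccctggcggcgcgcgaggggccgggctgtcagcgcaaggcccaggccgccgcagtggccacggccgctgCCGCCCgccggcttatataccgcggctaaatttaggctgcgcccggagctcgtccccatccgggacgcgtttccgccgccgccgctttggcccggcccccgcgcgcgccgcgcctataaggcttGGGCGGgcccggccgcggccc
KLF16, chr19:1863580-1863829, minus strand: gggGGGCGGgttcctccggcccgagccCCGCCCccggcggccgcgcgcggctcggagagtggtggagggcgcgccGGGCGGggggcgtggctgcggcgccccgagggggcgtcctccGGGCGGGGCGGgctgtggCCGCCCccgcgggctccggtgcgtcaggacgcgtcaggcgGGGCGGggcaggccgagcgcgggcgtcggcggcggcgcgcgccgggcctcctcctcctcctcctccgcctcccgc
KLF13, chr15:31326585-31326834, plus strand: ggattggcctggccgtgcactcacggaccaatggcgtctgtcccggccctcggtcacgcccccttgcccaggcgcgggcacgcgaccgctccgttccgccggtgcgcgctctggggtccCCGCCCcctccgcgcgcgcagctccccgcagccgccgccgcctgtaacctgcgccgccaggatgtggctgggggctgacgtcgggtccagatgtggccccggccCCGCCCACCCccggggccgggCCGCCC
KLF9, chr9:70414658-70414907, minus strand: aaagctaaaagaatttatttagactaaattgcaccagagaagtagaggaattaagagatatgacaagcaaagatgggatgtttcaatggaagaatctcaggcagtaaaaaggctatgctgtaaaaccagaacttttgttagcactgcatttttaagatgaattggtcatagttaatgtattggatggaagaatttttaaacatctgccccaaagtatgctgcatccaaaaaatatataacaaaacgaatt
The RefSeq promoters, from 250 bases before to 50 after the start, matched 8 of the 10 members. They held 7 GC boxes at KLF16, 6 at KLF2, 4 at KLF4, 3 at KLF13, 2 each at KLF5, KLF6 and KLF11, and 0 at KLF9, of which 2 at KLF2 lie in the 50 bases after the start that are not shown. A GC box, the letters KLF and SP factors can bind, was thus in 7 of 8 member promoters, against 44.9% of 34943 promoters of that length. A CACCC box was in 2 of 8, KLF5 and KLF13, against 59.8%. At KLF11 the RefSeq start lay 279 bp downstream of the canonical start. Of the 250 bases before the RefSeq start, 180 at KLF11 and 72 at KLF6 lay in the gene's own annotated exons. The background promoters were not matched for GC. Their median GC was 58.7%, and the 7 member promoters with a GC box ranged from 69% (KLF4) to 86% (KLF16). The part of base composition in these shares was not tested. The promoters with the most GC boxes, KLF16 and KLF2, included the member with the strongest Kbz peak and the member with none.

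Among the 8 other KLF genes, 5 had control Kac at a promoter, 4 had SB Kac and 3 had SB Kbz (KLF7, KLF12 and KLF15), and KLF8 had no peak in any list. Of the 9 SP genes, whose products bind the same GC box, 8 had a promoter peak in each list, with SP5 the exception. Of the genes with a Kbz promoter peak, the canonical start lay under Kbz at 2 of 3 other KLF genes and 4 of 8 SP genes. The share over all coding genes with such a peak was 70.8%. The third list was 24 genes of cofactors, ubiquitin ligases and upstream signals of KLF proteins, such as SIN3A, CTBP1, EP300, SMAD3 and NR3C1. Of these, 24 had a control Kac promoter peak, 24 an SB Kac and 23 an SB Kbz promoter peak, with KAT2B, an acetyltransferase, lacking Kbz. The start lay under Kbz at 14 of the 23 with a Kbz promoter peak, against 70.8% of coding genes. It lay under SB Kac at 22 of the 24 with an SB Kac promoter peak, against 79.8%.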

How the data were processed

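HepG2 chromatin was cut with micrococcal nuclease. According to the labels and methods, the authors aligned single reads of 50 bp to hg38 with Bowtie2 2.2.6, removed duplicates with SAMtools 0.1.19 and called peaks per library with MACS2 2.1.1 at a stated FDR of 0.01. The broad setting and the background track are not given in the sources used here. The deposited fold is a linear ratio over background and was used as a rank within a list and printed for a peak of KLF16. The deposited −log10 p and q values served as thresholds, and the lowest −log10 q was 1.31. The deposited −log10 q was below 2 at 18.6% of control Kac, 24.8% of SB Kac and 11.4% of SB Kbz peaks. How this value was formed over a broad peak is not given, so these peaks are not known to have missed the stated FDR. They were kept, and a −log10 q of at least 2 was an alternative. The deposited score, a display value, was not used. Broad peaks join neighbouring stretches, so lengths and joins depend on depth, which is unknown.

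Peaks were kept on 24 chromosomes (3 control Kac peaks were left out) and joined to GENCODE 44 genes by overlap of at least 1 bp. The named genes were the 10 members, the rest of the family and fixed lists of SP, partner and marker genes. Members and lists were chosen with earlier results of these data known. Python 3.11.15, numpy 2.4.6, pandas 2.3.3, scipy 1.17.1 and matplotlib 3.10.9 were used. Overlaps were tested on simulated data (1000 of 1000 planted overlaps recovered, 0 of 1000 placed beside a peak) and 6 counts were checked with bedtools 2.31.1, of which 0 differed. KLF3 and KLF10 had no RefSeq promoter entry. Alternatives were stricter thresholds, the 15000 peaks with the highest −log10 p, merging, other windows and an overlap of 50%. The counts of covered starts and the comparison of Kac bases were chosen after seeing the data. So were their alternatives and that for members with a peak at a −log10 q of at least 2. Input libraries were not analysed here.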

Additional observations from a re-analysis of the deposited data

How the results depend on the processing

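Of 72 alternative values of 17 results, 51 stayed within the limits set for an unchanged value (counts within 1.5 times) and 21 moved. Members with a promoter peak fell to 5 in control Kac and 4 in SB Kbz among the 15000 peaks with the highest −log10 p, and to 3 in SB Kbz at the stricter −log10 q of 5 or more. There were 12 control Kac peaks at that threshold, 8 among the top 15000, 19 without flanks and 138 with flanks of 100 kb. SB Kac peaks numbered 9, 8, 19 and 104 in the same order, and SB Kbz peaks numbered 5 and 8 under the first 2 settings and 44 with flanks of 100 kb. Requiring an overlap of 50% lowered the overlap of control Kac with SB Kac to 52.8% of peaks, of SB Kac with control Kac to 54.5% and of SB Kac with Kbz to 18.2%, and among the top 15000 the last was 75%. Members with the start under Kbz numbered 3 with any annotated start. Members with more SB Kac than control Kac bases numbered 3 at a −log10 q of 5 or more and 3 among the top 15000. The cause of these moves was not tested, except that stricter lists and smaller windows hold fewer peaks by construction. No paired analysis was possible because every group is a lone library, and no replicate could be left out. Unknown depth limits every comparison of peak numbers and lengths.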
